A study of Danio rerio with 10 samples.

Results

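Collagen, laminin and other extracellular matrix genes were examined in TL strain zebrafish (Danio rerio) embryos collected 36 hours after fertilization. The members were the gene symbols starting like those of collagens, laminins, matrilins, hyaluronan and proteoglycan link proteins, fibrillins, follistatin-like proteins, SPARC, aggrecan, versican and fibronectin 1, with a mean of 1 RPKM or more over the whole-embryo or over the fraction libraries. RPKM is the number of reads scaled to transcript length and to the total reads of the library, so levels can be compared between genes. Of 14563 symbols, 52 matched and 43 were members. The members just inside the limit were fstl5, with a mean of 1.03 RPKM over the whole-embryo libraries, and col5a3a, with 1.31. The symbol just outside it was sparcl1, with 0.85. The symbol col4a3bpa matches the pattern but names a ceramide transporter (current symbol cert1a), not a collagen, and it was kept in all counts.

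The series measured polyadenylated RNA in 10 libraries. Whole embryos were wild-type controls (genotype wildtype), siblings (genotype fn10a+/- and +/+, pooled) and mutants (fn10a-/-), with 2 libraries each and 30 embryos per library. Nuclear and cytoplasmic RNA came from siblings and from mutants, with 1 library per fraction and genotype and so no replicate check. The fn10a allele is known to lie in eftud2, whose product is a spliceosomal GTPase bound to the U5 particle. All libraries are of whole embryos or their fractions, so that fewer cells of a type and less RNA per cell cannot be told apart. Whether replicates are separate clutches is not in the labels, and the p-values therefore describe only how far these libraries scatter, which may be technical.

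The extracellular matrix is built from fibrils, sheets and linking proteins that cells secrete. Fibrillar collagens assemble as triple helices into fibrils. Type II collagen with types IX and XI makes the fibrils of cartilage and of the notochord sheath, while type I with type V makes those of skin and tendon. Laminins are trimers of an alpha, a beta and a gamma chain that form the basement membrane sheet together with type IV collagen. Fibronectin and fibrillin form other fibre networks, and link proteins hold lecticans such as versican on hyaluronan. In the zebrafish embryo the notochord, the skin and fin folds, the somite boundaries and the early cartilage are known sites of these genes.

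Each whole-embryo library had 34060890 to 82752349 reads on listed transcripts, and each fraction library 7164408 (mutant nuclei) to 19195327 (mutant cytoplasm). Listed transcripts held 54.2% to 58.7% of the authors' total reads in replicate 1 libraries, 31.6% to 33.7% in replicate 2 libraries, 33.5% in sibling nuclei, 41.7% and 41.8% in sibling and mutant cytoplasm, and 19.2% in mutant nuclei. The replicate 1 files of whole embryos also have another format. Replicate number thus goes with a difference between the files whose source the labels do not name, and each change is given within replicates. As a check of the labels, eftud2 had 30.2 and 10.5 RPKM in wild-type controls, 28.1 and 9.91 in siblings and 11.3 and 3.60 in mutants (replicates 1 and 2, in that order here and throughout). It was lower in mutants than in siblings in both replicates (log2 fold change -1.35, SE 0.13, edgeR adjusted p = 0.0183). Every adjusted p-value given here comes from a fit with a term for replicate number, and without that term 0 of 10147 genes passed in any comparison, eftud2 included.

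The members covered a wide range of levels in whole embryos. Type I collagen led: col1a1a had 222 and 422 RPKM in wild-type controls, 361 and 439 in siblings and 323 and 567 in mutants. The groups overlapped, and the replicate 2 library was the higher within each group. SPARC, a secreted protein that binds collagen, was at 205 to 225 RPKM as deposited in all 6 libraries. On the scale of the edgeR fits, which uses listed reads only, it was at 375 to 419 in replicate 1 and 680 to 735 in replicate 2. Comparisons of levels between replicate numbers thus depend on the scaling. The col1a2 chain was at 130.3 to 164 RPKM and the col1a1b chain at 112 to 155. All members together took between 1.34% and 3.15% of the listed reads of a whole-embryo library, and no member was at 0 reads in any library. The lowest levels were those of fstl5, a brain-expressed follistatin-like gene, at 0.663 to 1.40 RPKM, and of the type V chain col5a3a at 0.605 to 2.68. Levels of some members also differed between the replicate numbers. The laminin chain lama1 was at 13.6 to 17.9 RPKM in replicate 1 and 2.24 to 2.82 in replicate 2, whereas matn3a, a matrilin of cartilage, was at 0.940 to 1.38 and 4.92 to 7.43.

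**Figure D1:**
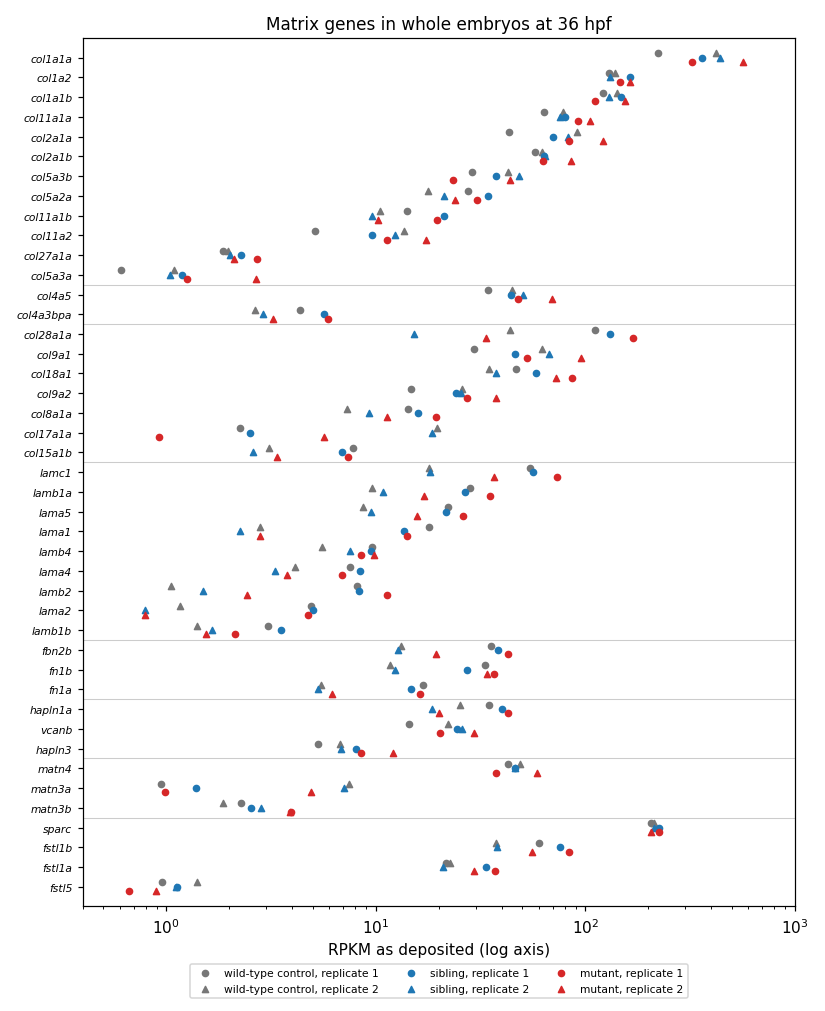
RPKM of the 43 matrix genes (rows, grouped by family and ordered by mean level) in the 6 whole-embryo libraries, on a log axis, with colour for group and shape for replicate number. Type I collagen and sparc lie above 100 RPKM in every library, and many laminins are higher in replicate 1 than in replicate 2 in RPKM as deposited.

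Comparing mutants with siblings asked which matrix genes change with homozygosity for fn10a among embryos of the same crosses. The member that fell was col17a1a, the transmembrane collagen of hemidesmosomes, which anchor basal keratinocytes to the basement membrane. It had 2.25 and 19.7 RPKM in wild-type controls, 2.51 and 18.6 in siblings and 0.927 and 5.67 in mutants. The mutant was the lowest library within each replicate number, although replicate 2 of the mutants lay above replicate 1 of both other groups. The level in mutants was 0.346 times that in siblings (log2 fold change -1.53, SE 0.18, edgeR adjusted p = 0.0311; -1.31 and -1.76 within replicates). Of 10147 genes tested, 1.74% passed, 1.16% higher and 0.581% lower, against 1 of 43 members, which was lower. Among 19 markers of the epidermis, the tissue that hemidesmosomes belong to, none passed in this comparison, and 17 were above 0 with a median log2 fold change of 0.23.

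The other members did not pass the edgeR adjusted p of 0.05 against siblings, and most were at or a little above the sibling level. Over all 43 members, col17a1a included, fitted changes were above 0 for 34, against 50% of all genes tested. The median log2 fold change of the 43 was 0.24 against a median of 0.00 over all genes. Mutants were above siblings in both replicates for 28 members (38.8% of all genes tested) and below in both for 5 (37.9%), col17a1a among them. At an unadjusted p under 0.05, 13 members were higher (11.4% of all genes) and 2 were lower (11.8%), col17a1a and col5a3b. These are counts over genes that share libraries, and the members are not replicates of each other.

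None of the basement membrane genes passed against siblings, and their values ranged widely. The collagen col18a1, a basement membrane collagen whose C-terminal fragment is endostatin, had 47.0 and 34.8 RPKM in wild-type controls, 58.2 and 37.4 in siblings and 86.1 and 72.9 in mutants. Both mutant libraries were above all 4 others. Its log2 fold change against siblings was 0.80 (SE 0.12, adjusted p = 0.0539), just outside the threshold. The gamma chain of most laminins, lamc1, had 54.5 and 17.9 RPKM in wild-type controls, 56.2 and 18.1 in siblings and 73.2 and 36.9 in mutants. The mutant was highest within each replicate number, but the groups overlapped across them (log2 fold change 0.75, SE 0.17, adjusted p = 0.0970). Its partner lamb1a was at 28.1 and 9.58, 26.6 and 10.8, and 35.0 and 17.0 RPKM in the same order of groups, again highest in the mutant within each replicate (0.56, SE 0.14, adjusted p = 0.113). A second lamb1a record on the other strand, looked at after seeing the data, gave 0.51 and 0.55 within replicates. The alpha chain lama5, known for its part in the fin fold, had a log2 fold change of 0.54 (SE 0.16, adjusted p = 0.140) and lamb2 one of 0.61 (SE 0.19, adjusted p = 0.152). Not all laminins were above siblings: lama2 and lama4, alpha chains of muscle and vessels, were at 0.00 and -0.01, and lamb1b was at -0.37 (SE 0.18). The type IV chain col4a5 had a value of 0.32 and the basement membrane collagen col15a1b one of 0.27.

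Fibronectin had the highest log2 fold change of all members. The fn1b copy had 33.2 and 11.7 RPKM in wild-type controls, 27.2 and 12.4 in siblings and 36.9 and 33.9 in mutants. Both mutant libraries were above the other 4, with the wider gap in replicate 2 (log2 fold change 1.02, SE 0.31, adjusted p = 0.146; 0.56 and 1.40 within replicates). Its paralog fn1a was at 0.22, with 14.7 and 5.32 RPKM in siblings and 16.2 and 6.22 in mutants. The fibrillin fbn2b, a fin fold gene, was at 0.42 (SE 0.12, adjusted p = 0.142).

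The fibrillar collagens differed little between mutants and siblings. Of 12, 10 had a fitted log2 fold change above 0, with a median of 0.17, and none passed. The cartilage and notochord chains col2a1a, col11a2 and col11a1a were at 0.44, 0.40 and 0.37, and the type IX chains that decorate these fibrils, col9a1 and col9a2, at 0.39 and 0.40. For col2a1a this corresponded to 43.4 and 91.1 RPKM in wild-type controls, 70.4 and 82.5 in siblings and 83.9 and 122 in mutants, with the mutant highest in each replicate number but the groups overlapping. The type I chains col1a1a, col1a2 and col1a1b were at 0.13, 0.12 and -0.03, with opposite signs in the replicates for each. The type XXVII chain col27a1a, with 2.29 and 2.02 RPKM in siblings and 2.70 and 2.11 in mutants, was at 0.20. In the type V family col5a3a was at 0.73 (SE 0.30) and col5a3b at -0.37 (SE 0.14). The type XXVIII collagen col28a1a was at 0.75 with the largest SE of any member, 0.39.

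Of the remaining members, the link protein hapln1a was at 0.15 and hapln3 at 0.48, while the lectican vcanb was at -0.01. The matrilins matn3b, matn4 and matn3a were at 0.58, 0.06 and -0.46. The follistatin-like genes fstl1b, fstl1a and fstl5 were at 0.40, 0.35 and -0.51, and sparc at 0.01. The ceramide transporter gene col4a3bpa was at 0.15.

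**Figure D2:**
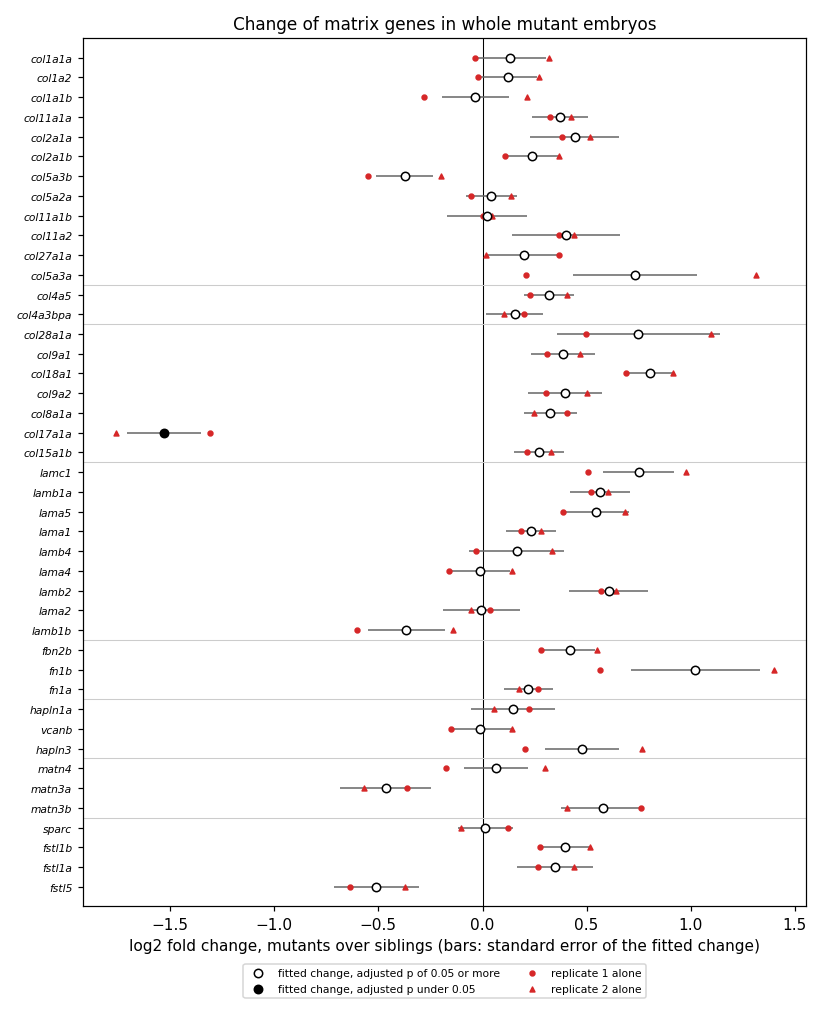
Fitted log2 fold change of each of the 43 matrix genes in mutants over siblings (x axis; circles, with bars for the standard error) and the change within each replicate number (red). Only col17a1a, filled, passed an adjusted p of 0.05, and 34 of the 43 circles lie to the right of 0.

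Against wild-type controls, the same mutant libraries gave 2 calls among the 43 members: col17a1a fell (log2 fold change -1.55, SE 0.18, edgeR adjusted p = 0.0241) and col18a1 rose (0.96, SE 0.12, adjusted p = 0.0310). Of all genes tested, 3.48% passed, 1.91% higher and 1.57% lower. The 2 comparisons share the mutant libraries, so they are not independent. Fitted changes were above 0 for 34 members against 48.7% of all genes, with a median of 0.36, and 26 were higher in both replicates against 32.6%. At an unadjusted p under 0.05, 22 members were higher (13.3% of all genes) and 2 lower (14.8%). Members with an adjusted p between 0.05 and 0.08 were the type IX chain col9a1 (log2 fold change 0.72, SE 0.15), the matrilin matn3b (0.91, SE 0.20), col4a5 (0.54, SE 0.12), lamb2 (0.82, SE 0.19), lamc1 (0.73, SE 0.17), fstl1b (0.52, SE 0.12) and hapln3 (0.75, SE 0.18).

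Siblings and wild-type controls were compared to show how far the controls differ among themselves. By edgeR, 0 of 10147 genes passed and so 0 members, with a share of 0% called. At an unadjusted p under 0.05, 8.65% of genes passed, among them 2 members, and DESeq2 called 94 genes, none of them a member. All 12 fibrillar collagens had a fitted value above 0, against 50.3% of all genes. Their median log2 fold change was 0.20, and that of mutants over siblings was 0.17. The lectican vcanb was at 0.45 and the laminin chain lama1 at -0.41.

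The counts of members called depended on which libraries entered the fit. Against siblings, 17 members passed with only the mutant and sibling libraries in the fit (22.2% of all genes), 17 without wild-type control replicate 1 (22% of all genes), and 16 without wild-type control replicate 2 (21.4%). With either sibling library or mutant replicate 2 left out, 0 members passed and 0% of all genes, and without mutant replicate 1 it was 1 member and 0.818% of all genes. DESeq2 with the replicate term called 6 members (11.8% of all genes) against siblings and 18 (17% of all genes) against wild-type controls. Against wild-type controls, 15 and 14 members passed without wild-type control replicates 1 and 2 (23.5% and 17.1% of all genes), and 1 without mutant replicate 1 (1.02%). No member passed without sibling replicate 1 (0.512% of all genes), sibling replicate 2 (0.503%) or mutant replicate 2 (0.069%), or with only the 2 groups compared (0.483%). The col17a1a call was lost without either sibling library and without mutant replicate 2 in both comparisons, at a log2 fold change between -1.28 and -1.60. The col18a1 call against wild-type controls was lost when any single sibling or mutant library was left out, at values between 0.88 and 1.04. Without the replicate block no member and 0% of all genes passed in either comparison. At an unadjusted p under 0.05 that fit passed 1 member against siblings (5.26% of all genes) and 1 against wild-type controls (6.57%).

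Nuclear RNA gave the largest differences among the members. Within 1 library per genotype there is no test, so differences are given as log2((mutant RPKM + 1)/(sibling RPKM + 1)) minus the median over all 8631 genes with a mean of 1 RPKM or more over the 4 fraction libraries, which removed a median of -0.84 between the nuclei and 0.02 between the cytoplasms. Of these genes 42 were members, without fstl5. Relative to the median gene, 14 of the 42 were more than 2-fold lower in mutant nuclei, against 6.02% of all genes, and 0 were more than 2-fold higher, against 7.72%. The median of the members was -0.71, and 36 of 42 were below 0. Among genes with a mean of 5 RPKM or more, the 14 stood among 30 members, against 8.13% of all genes. With values as deposited, 34 members were more than 2-fold lower against 39.9% of all genes, and 0 higher against 1.22%. A pseudocount of 0.1 gave 22 lower (18.1% of all genes) and 2 higher (14.3%), a pseudocount of 5 gave 11 lower (2.64%) and 0 higher (1.38%), and TMM scaling, added after seeing the data, gave 22 lower (16.5%) and 2 higher (14.3%).

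With the pseudocount of 1, the lowest values were those of 5 genes given as markers of these matrix genes: hapln1a, col2a1a, col11a2, fstl1b and col8a1a. The 5 markers had been singled out with earlier results of these data known, so that their place is a description. The order depends on the pseudocount. By plain ratio of sibling to mutant nuclear RPKM, hapln1a (55.0), fstl1b (30.4) and col8a1a (26.4) led the members. By that ratio col27a1a (19.0), lama2 (16.2), fbn2b (15.8) and lama1 (14.4) were above col11a2 (14.2) and col2a1a (13.3). The link protein gene hapln1a (danRer7 chr5:48105482-48116645, minus strand) was at 26.3 RPKM in the nuclei of siblings and 0.478 in those of mutants, from 1121 and 18 reads, and 13.1 and 18.9 in sibling and mutant cytoplasm. The low library was the mutant nucleus alone. The 95% Poisson interval of its value was 0.283 to 0.755 RPKM, which covers counting error only. The difference relative to the median gene was -3.37, the lowest of all 8631 genes at the pseudocount of 1.

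The main chain of type II collagen, col2a1a (chr8:21733547-21756525, plus strand), was at 258 RPKM in the nuclei of siblings and 19.4 in those of mutants, against 135 and 188 in the cytoplasms. The difference was -2.82, the lowest but one at the pseudocount of 1. The type XI chain col11a2 (chr19:7803846-7847676, minus strand), which co-assembles with type II, was at 37.2 and 2.62 RPKM in the nuclei and 18.9 and 27.1 RPKM in the cytoplasms, a difference of -2.56. Both genes were above the cytoplasmic level in sibling nuclei and far below it in mutant nuclei. The secreted glycoprotein gene fstl1b (chr9:9960549-10063561, minus strand) had 14.5 and 0.478 RPKM in the nuclei and 20.2 and 39.7 in the cytoplasms (-2.56). The network-forming collagen col8a1a (chr9:31124047-31136086, plus strand), needed for the notochord in zebrafish, had 15.0 and 0.568 in the nuclei and 8.86 and 11.8 in the cytoplasms (-2.51). Under the pseudocounts and scalings run, the differences of these 5 genes were at -1.44 or lower.

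**Figure D3:**
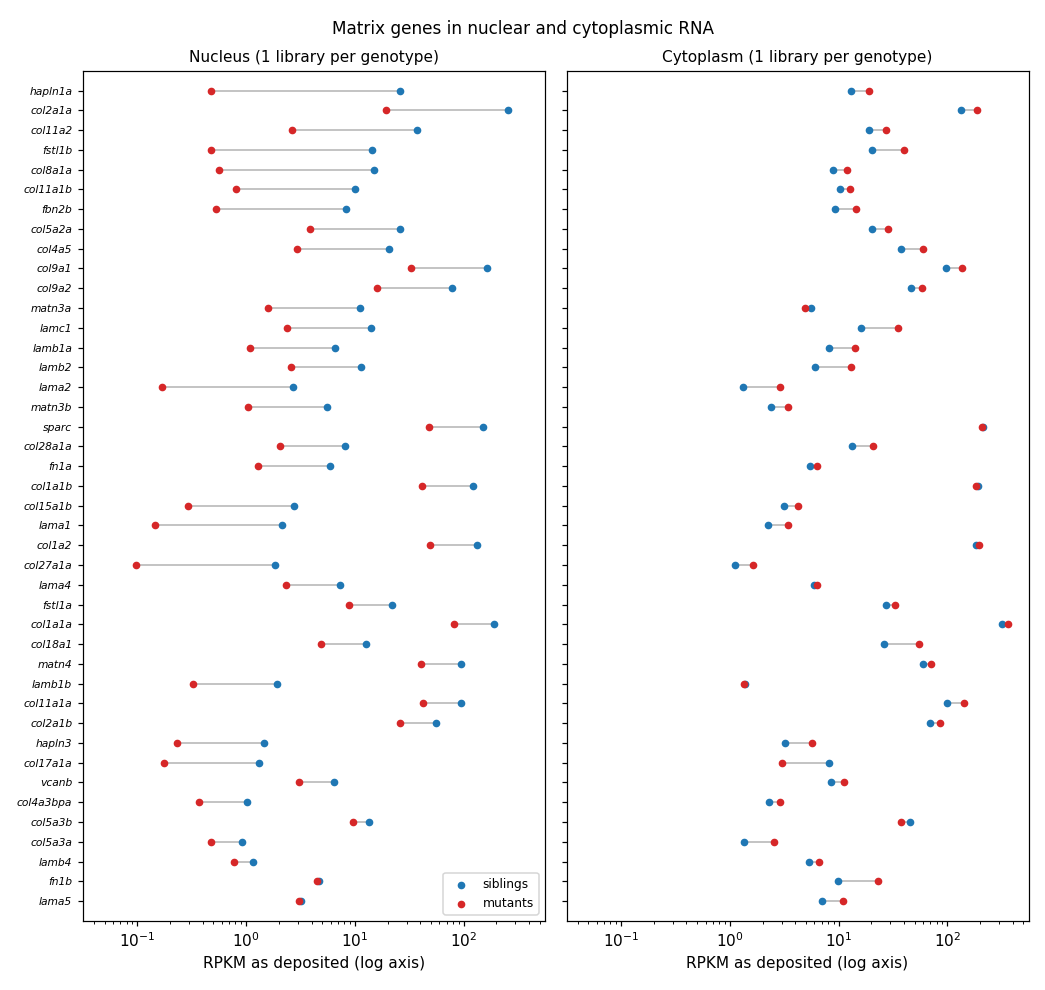
RPKM of 42 matrix genes in sibling (blue) and mutant (red) nuclei on the left and cytoplasm on the right, on log axes, with 1 library per point and genes ordered by their nuclear difference. The mutant point lies left of the sibling point for all 42 genes in the nucleus, as it would for 88.9% of all genes. In the cytoplasm it lies right of the sibling point for 36 of 42, against 52.3% of all genes. For hapln1a the mutant points are at 0.478 RPKM in the nucleus and 18.9 in the cytoplasm.

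The other 9 members past 2-fold lower were the fibrillar chains col11a1b (-1.79) and col5a2a (-1.63), the fibrillin fbn2b (-1.78), the type IV chain col4a5 (-1.61), the type IX chains col9a1 (-1.45) and col9a2 (-1.40), the matrilin matn3a (-1.38) and the laminin chains lamc1 (-1.34) and lamb1a (-1.02). For col9a1 the levels were 164 and 32.9 RPKM in the nuclei of siblings and mutants, and for fbn2b 8.35 and 0.528. The lamb1a value is that of the record with most reads, at 6.58 and 1.09 RPKM in these nuclei. The second lamb1a record, on the other strand, was lower by a smaller factor, at 15.7 and 6.05 RPKM. Relative to the median gene that record was short of 2-fold lower, so the place of lamb1a among the 14 depends on the record used. The 14 had a median level over the 4 fraction libraries of 17.8 RPKM, the lowest at 5.80, against a median of 4.26 over all 8631 genes. The highest values belonged to lama5 (0.79; 3.22 and 3.08 RPKM in sibling and mutant nuclei), fn1b (0.78; 4.70 and 4.48), lamb4 (0.56), col5a3a (0.45) and col5a3b (0.36). The fibrillar chain col27a1a was at -0.54, with 1.85 and 0.0973 RPKM in sibling and mutant nuclei from 408 and 19 reads. At levels this low, adding 1 RPKM shrinks the difference. The same holds for lama1 at -0.61 (2.12 and 0.147 RPKM) and lama2 at -0.84 (2.73 and 0.168 RPKM). The symbol col4a3bpa was at 0.28. The type I chains col1a1a, col1a2 and col1a1b were at -0.39, -0.59 and -0.72.

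The 8 pairs of duplicate genes differed in how alike their nuclear values were. Those of col5a3a and col5a3b were nearly equal at 0.45 and 0.36, although col5a3a was below 1 RPKM in both nuclei. Those of col1a1a and col1a1b were -0.39 and -0.72. For fn1a and fn1b they were -0.75 and 0.78. The copy col2a1b had 55.3 and 25.8 RPKM in sibling and mutant nuclei, a difference of -0.23 against -2.82 for col2a1a, whereas their whole-embryo log2 fold changes were 0.24 and 0.44. For type XI, col11a1a was at -0.29 (94.1 and 42.5 RPKM) and col11a1b at -1.79 (10.1 and 0.801). For the follistatin-like pair, fstl1a was at -0.39 (22.2 and 8.89 RPKM) and fstl1b at -2.56. Values of matn3b and matn3a were -0.83 and -1.38, and those of lamb1b and lamb1a -0.31 and -1.02. The lamb1a value is from its record with most reads, and its second record fell less. Reads of such copies can be shared where their sequences match, and no test was possible.

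Cytoplasmic RNA differed in the other direction for most members. Relative to the median gene, 36 of 42 were above 0, with a median of 0.36, and 3 were more than 2-fold higher, against 1.49% of all genes: fn1b (1.12; 9.92 and 23.1 RPKM in sibling and mutant cytoplasm), lamc1 (1.04; 16.2 and 34.9) and col18a1 (1.01; 26.4 and 55.1). Their whole-embryo log2 fold changes against siblings were 1.02, 0.75 and 0.80. The 1 member more than 2-fold lower, against 1.52% of all genes, was col17a1a (-1.20; 8.12 and 3.02 RPKM), the gene that fell in whole embryos. The 5 genes lowest in mutant nuclei at the pseudocount of 1 were at 0.48 (hapln1a), 0.46 (col2a1a), 0.48 (col11a2), 0.92 (fstl1b) and 0.36 (col8a1a). Laminins had a median of 0.57, with 8 of 9 above 0.

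In sibling embryos the nucleus was compared with the cytoplasm to show where these transcripts lie without the homozygous mutation. This comparison uses the same sibling nuclear library as the nuclear difference above. Of 42 members, 6 were more than 2-fold higher in the nucleus relative to the median gene, against 1.76% of all genes: hapln1a (1.17), matn3b (1.16), col11a2 (1.16), col2a1a (1.15), matn3a (11.1 and 5.56 RPKM in nucleus and cytoplasm) and lamb2 (1.02). At 0.96 and 0.98, the type IX chains col9a1 and col9a2 were just short of it. The count was 10 with a pseudocount of 0.1 (3.63% of all genes), 1 with a pseudocount of 5 (0.602%), 9 with TMM scaling (2.7%) and 0 with values as deposited (0.892%). More than 2-fold lower were 3, against 5.43%: col17a1a (-1.75), col5a3b (-1.44) and lamb4 (-1.33). In mutant embryos, with the mutant nuclear library used above, 19 of 42 were more than 2-fold lower in the nucleus than in the cytoplasm, against 8.79% of all genes. With mutant values as deposited, 40 of 42 were more than 2-fold lower in the nucleus, against 53.7% of all genes. For col2a1a the ratio of nuclear to cytoplasmic RPKM as deposited was 1.91 in siblings and 0.104 in mutants, and for col1a1a 0.604 and 0.228. For the median gene, from log2(RPKM + 1), it was 0.86 and 0.48.

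**Figure D4:**
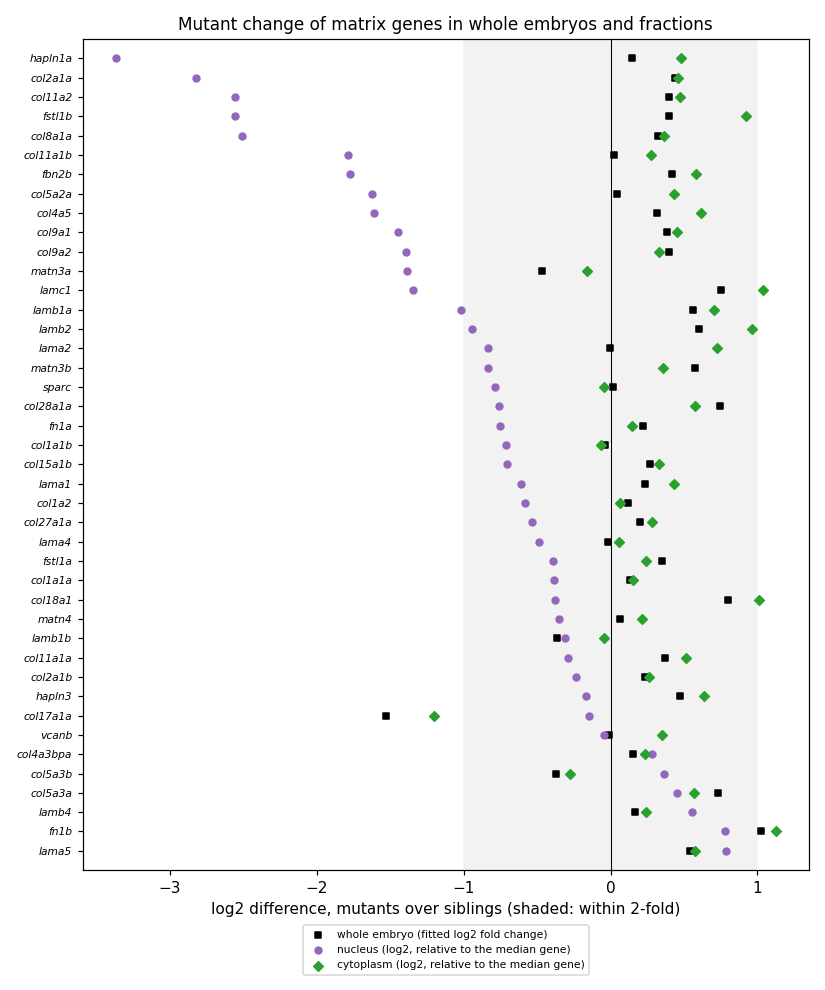
Log2 difference of mutants over siblings for 42 matrix genes in whole embryos (squares, fitted log2 fold change), nuclei (circles) and cytoplasm (diamonds; both fractions relative to the median gene, shaded within 2-fold). Nuclear values run from -3.37 for hapln1a to 0.79 for lama5, while whole-embryo and cytoplasmic values have medians of 0.24 (over 43 members) and 0.36 and are at -1.53 and -1.20 for col17a1a.

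Other features of the libraries and genes are given beside the nuclear values. Mutant nuclei had the fewest listed reads and the lowest share of them. Relative to the median gene, 7.72% of all genes were more than 2-fold higher in mutant nuclei and 6.02% lower. Marker counts and medians for nuclei are on that scale, whereas the summed levels are RPKM as deposited, without centring. As deposited, the median gene of mutant nuclei was at 0.56 times its sibling level, from log2(RPKM + 1). Markers of epidermis were more than 2-fold higher in mutant nuclei for 13 of 19 genes and lower for 1, with a median of 1.44 and a summed level of 2415 and 5171 RPKM in sibling and mutant nuclei. Markers of notochord and floor plate had 2 of 14 higher and 2 lower, with a median of -0.21 and sums of 224 and 113. Skeletal muscle markers had 2 of 26 higher and 3 lower, with sums of 28470 and 17304, and blood markers had 0 of 16 past 2-fold and sums of 1079 and 521. No marker of these lists was at 0 in a fraction library. In whole embryos none of the notochord or epidermis markers passed against siblings, and their medians were 0.51 and 0.23. Against wild-type controls these medians were 0.05 and 0.21 for mutants, and -0.36 and -0.003 for siblings. Of 18 blood markers 1 fell against siblings (0.581% of all genes), the lysozyme gene lyz (log2 fold change -1.11, edgeR adjusted p = 0.0409). Of the 18, 17 were below 0, with a median of -0.30. For skeletal muscle 0 of 26 markers passed and the median was -0.18. The part of these differences in the nuclear values was not tested. Gene size was another shared property: members had a median transcript length of 5082 bases against 1836 over all 8631 genes, and the share of genes more than 2-fold lower in mutant nuclei was 5.77%, 6.69%, 5.93% and 5.71% in 4 bins of equal size from the shortest to the longest transcripts. By genomic span it was 5.14%, 3.94%, 5.89% and 9.13%, again from the shortest to the longest. Members had a median span of 46139.5 bases against 13478 over all genes, and 31 of the 42 were in the longest bin. By mean level over the fraction libraries, from the lowest to the highest, the share was 0.927%, 6.58%, 9.74% and 6.86%. These bins held 6, 5, 11 and 20 members. The part of span and level in the nuclear values was not tested.

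Genes that process, bind or cut the matrix were counted from lists chosen with earlier results known. Collagen processing enzymes had 0 of 35 past the threshold against siblings in either direction (1.74% of all genes). Of these 35, 29 were above 0 (50% of all genes), with a median log2 fold change of 0.30. The lysyl hydroxylase plod1a had 14.5 and 10.5 RPKM in siblings and 21.6 and 18.1 in mutants (0.72, SE 0.11, edgeR adjusted p = 0.0509), and plod2 was at 0.73 (adjusted p = 0.101). Among 16 matrix proteases and inhibitors 1 rose (1.16% of all genes) and none fell (0.581%). The gelatinase mmp2 had 24.2 and 20.5 RPKM in wild-type controls, 29.2 and 20.2 in siblings and 73.8 and 56.6 in mutants. Both mutant libraries were above the other 4 (log2 fold change 1.45, SE 0.12, adjusted p = 0.0145). The other gelatinase, mmp9, was at 1.23 (SE 0.18, adjusted p = 0.0509) and rose against wild-type controls (1.29, adjusted p = 0.0364).

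Among 33 matrix receptors and cell surface proteoglycans 2 rose against siblings (1.16% of all genes) and none fell (0.581%). They were the syndecan sdc4, with 59.6 and 44.8 RPKM in siblings and 107.4 and 107.6 in mutants (1.097, SE 0.13, adjusted p = 0.0285), and the glypican gpc4 (1.09, SE 0.13, adjusted p = 0.0314). The focal adhesion gene lims2, with 16.1 and 2.28 RPKM in siblings and 7.19 and 0.814 in mutants, was at -1.26 (SE 0.19, adjusted p = 0.0509). In the list of other matrix proteins 1 of 37 fell (0.581% of all genes) and none rose (1.16%). It was mfap2, a protein of fibrillin microfibrils, with 30.8 and 17.98 RPKM in siblings and 13.8 and 9.30 in mutants (-1.02, SE 0.14, adjusted p = 0.0435). In nuclei mfap2 had 17.9 and 0.815 RPKM. Against wild-type controls 4 of that list rose (1.91% of all genes) and 1, mfap2, fell (1.57%). Those that rose were the fibulin efemp2a (1.03), the basement membrane genes frem2a (1.06) and frem3 (0.94) and the hyaluronan synthase has3 (1.75). For has3, siblings were also above wild-type controls, at 0.87, without passing. For sdc4, with 78.0 and 61.0 RPKM in wild-type controls, siblings were below wild-type controls, at -0.47, without passing. Mutants over wild-type controls were at 0.63 for sdc4 (edgeR adjusted p = 0.0598) and at 0.82 for gpc4 (edgeR adjusted p = 0.0414).

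Of 43 regulators of cartilage and notochord none passed against siblings in either direction (1.74% of all genes). The chondrogenic factor sox9b had 11.7 and 7.52 RPKM in siblings and 5.92 and 4.25 in mutants (-0.86, SE 0.13, adjusted p = 0.0509). Against wild-type controls 3 fell (1.57% of all genes) and none rose (1.91%). They were sox9b (-1.28, edgeR adjusted p = 0.0166), sox9a (-0.90, adjusted p = 0.0364) and zeb2b (-1.09, adjusted p = 0.0382). For sox9a, siblings were also below wild-type controls, at -0.67, without passing. Its levels were 14.8 and 4.64 RPKM in siblings and 12.2 and 3.86 in mutants. The sox9 factors are known activators of col2a1a and other type II, IX and XI collagen genes. In nuclei, where 6.02% of all genes were more than 2-fold lower and 7.72% higher, 6 of 41 regulators were lower and 0 higher. Of 29 receptors 7 were lower and 0 higher, and of 33 other matrix proteins 8 were lower and 2 higher. Of 33 collagen processing genes 2 were lower and 2 higher, and of 13 proteases and inhibitors 1 was lower and 0 higher.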

How the data were processed

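Each deposited file holds 1 library. Per the labels' protocols, the RNA of whole embryos was extracted with Trizol and made into strand-specific (dUTP) libraries, whereas the fractions were separated with the PARIS kit and their libraries were unstranded. TopHat2 2.0.8 and the build danRer7 are named in the submitters' processing notes. Neither the counting tool nor its strand setting is given in the sources used here. Overlapping or antisense genes could therefore share reads. The files list 15865 RefSeq records with position and length, per the file headers. Their read counts are whole numbers, deposited without normalization. The authors' RPKM equals count over length and over 1 total per file.

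Members and lists were chosen with earlier results of these data known. For each of 14563 symbols the record with most reads was kept. The test was edgeR 4.0.16 (R 4.3.3; glmQLFit, glmQLFTest) with TMM scaling on all 6 whole-embryo libraries, with terms for group and replicate number, over the 10147 genes whose mean was at least 1 RPKM, with Benjamini-Hochberg adjustment over all of them and a threshold of 0.05. It leaves 2 residual degrees of freedom. Replicate number pairs the samples: libraries of the same number deviate from their group means together, with correlations over genes of 0.756, 0.712 and 0.866 between the group pairs, and the files of replicate 1 have another format. Fractions were compared as log2(RPKM + 1) differences minus the median gene, with no test and a 2-fold size rule. Scripts were tested on simulated counts in which 200 of 10147 genes were changed. Against siblings and wild-type controls, the fit recovered 47% and 49% of 2-fold changes and 100% of 4-fold changes. It made 16 and 22 false calls, a larger share of its calls than the threshold of 0.05 is meant to allow. In this simulation the adjusted p-values were thus too lenient. Without the replicate term the fit recovered 0% of either size. The simulated means were set per replicate number from these data, and their spread came from the fit with that term. The 0% was thus built in and does not test the replicate term. With 47% and 49% of 2-fold changes recovered, a member that did not pass can still differ 2-fold. Named genes were the 5 given markers, members past the threshold, up to 3 members per family with the highest levels and 2 with the largest changes each way, the 5 highest and lowest per fraction comparison, and their paralogs; other members were named with values so that each of the 43 appears. Of the members, 42 had an accession in the RefSeq gene table, used for current names only. No sequences are printed. Alternatives were no replicate term, DESeq2 1.42.0, limma 3.58.1 on log2(RPKM + 1) and log2(RPKM + 5), the authors' totals, other filters, only the groups compared, leaving out each library, and other pseudocounts and scalings of the fractions.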

Additional observations from a re-analysis of the deposited data

Results flagged for a closer look

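The laminin chain lamc1 had opposite differences in the fractions. Relative to the median gene, the log2 difference of mutants over siblings was -1.34 in nuclei and 1.04 in cytoplasm, so that the nuclear value lay below the cytoplasmic by -2.38. It was the only member of 42 more than 2-fold lower in mutant nuclei (6.02% of all genes) and more than 2-fold higher in mutant cytoplasm (1.49%). How many of all genes met both rules was not counted. Over the pseudocounts and scalings run, lamc1 was at -2.18 to -0.993 in nuclei and 0.897 to 1.07 in cytoplasm. The weakest value was thus short of 2-fold in each fraction. Opposite signs as such were common, and the gap was wider for hapln1a (-3.37 and 0.48), fstl1b (-2.56 and 0.92) and col2a1a (-2.82 and 0.46). With 1 library per fraction and genotype, this contrast was not tested.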

How the results depend on the processing

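The calls rested on the replicate block: without it 0 of 10147 genes passed, and so 0 members, against siblings and against wild-type controls. DESeq2 with the block gave 6 and 18 (11.8% and 17% of all genes). With limma on log2(RPKM + 5) it was 0 and 1 (2.02% and 3.17%), and with only the 2 groups compared 17 and 0 (22.2% and 0.483%). Leaving out each library in turn gave 0 to 17 members against siblings, 0 to 15 against wild-type controls and 0 to 1 for siblings against wild-type controls, the 1 without wild-type control replicate 1. The cause was not tested.

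The median log2 of members in mutant nuclei was -0.71, and it was -1.11 with a pseudocount of 0.1, -0.58 with 5, -1.55 as deposited without centring, -0.866 with a mean RPKM of 5 or more and -1.03 with TMM scaling, which was chosen after seeing the data. In cytoplasm it was 0.36, and 0.26 with a pseudocount of 5. The median of sibling nucleus over cytoplasm, 0.05, turned to -0.16 as deposited and -0.0157 with a mean RPKM of 5 or more.

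Small whole-embryo changes against siblings turned sign. For sparc (0.01) the value was -0.0194 without the replicate block, -0.0217 with a mean RPKM of 5 or more, -0.0259 with the authors' totals, and -0.0262 and -0.0257 with limma on log2(RPKM + 1) and log2(RPKM + 5). For col1a1b (-0.03) it was 0.055 without the block. Leaving out single libraries gave -0.0866 to 0.37 for col1a1a, -0.24 to 0.17 for col1a1b, -0.0307 to 0.28 for col1a2, -0.0924 to 0.34 for hapln1a, -0.19 to 0.17 for lama4, -0.19 to 0.46 for lamb4, -0.17 to 0.27 for matn4 and -0.11 to 0.12 for sparc. Mutant nuclei had the lowest depth, which limits the precision of members with few reads there.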
